A study of Mus musculus with 6 samples.

Results

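Of the 2089 TAF4b peaks that CUT&RUN gave on placed chromosomes of mouse oocytes, 608 (29.1%) lay over 10 kb from any called H3K4me3 region. Both numbers add the lists of 2 libraries, so a site found in both is counted in each, as were 105 pairs of far peaks. The far peaks were selected on the gap between each peak and the nearest region of either H3K4me3 library on the same chromosome. Library 1 held 303 of them among 978 peaks (31.0%, exact 95% interval 28.1 to 34.0%) and library 2 held 305 among 1111 (27.5%, 24.8 to 30.2%). They were set against the TAF4b peaks that overlapped an H3K4me3 region by at least 1 bp, 541 in library 1 and 649 in library 2. Since the gap chose the members, gaps are given below as a description, with no test. The position at genes, the annotation, the score, the Focus Ratio, the chromosome and the recovery in the other TAF4b library were not used in the choice. The position and the annotation are still linked to the gap, as H3K4me3 itself lies around transcription start sites.

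TAF4b is a subunit of TFIID, the general transcription factor that binds core promoters and positions RNA polymerase II at the transcription start site (TSS). It is a paralog of the widely expressed TAF4, is enriched in gonads, and is needed in mice for normal oocyte development and female fertility. H3K4me3, trimethylation of lysine 4 of histone H3, is deposited by SET1 and MLL methyltransferases around the start sites of active and poised genes. A zinc finger of another TFIID subunit, TAF3, binds the mark, so TFIID and H3K4me3 are usually found at the same promoters. In CUT&RUN an antibody against the protein or mark brings a nuclease to it, and the DNA released is sequenced.

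All libraries came from GFP-positive oocytes sorted from female embryos at E16.5, which are labelled C57BL/6 and Taf4b-wildtype and carry a homozygous Oct4-EGFP reporter that marks germ cells. H3K4me3, TAF4b and IgG, a control antibody, have 2 libraries each. The IgG libraries were not analysed here, which leaves the peaks without a control value. Whether the 2 libraries of an antibody are from different animals is not in the labels. The lists name Ensembl transcripts without gene names, so germ cell markers could not be looked up and regions are given by their GRCm39 position.

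The lists differed in length. H3K4me3 library 1 held 8129 regions and library 2 held 320, so a peak far from H3K4me3 is in practice a peak far from the regions of H3K4me3 library 1. Peaks were 90 bp wide in TAF4b library 1 and 134 bp in library 2. Without H3K4me3 library 1, 52 and 67 TAF4b peaks of libraries 1 and 2 overlapped a region and 912 and 1028 counted as far, and none of the 8 called differences below with a finite odds ratio other than 0 passed any more. Read totals are unknown, and a peak far from any called region can still carry the mark below the level at which it was called. Peaks are not replicates of a condition. Each test below compares 2 groups of peaks within 1 library and covers counting error only.

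Most TAF4b peaks either overlapped an H3K4me3 region or lay over 10 kb from one. In library 1, 541 overlapped a region, 106 lay within 1 kb of one, 28 lay between 1 and 10 kb, and 303 lay farther. The counts in library 2 were 649, 120, 37 and 305. A limit of 5 kb would give 318 and 325 far peaks in libraries 1 and 2. The classes differ widely in width, so these counts do not show a trough at 10 kb. Gaps of 10 to 50 kb were found in 109 and 117 of the far peaks. The far peaks had a median gap of 79438 bp in library 1 (quartiles 33452 and 178525 bp) and 72049 bp in library 2 (30076 and 167011 bp), and a widest gap of 2609839 and 2609828 bp at 1 promoter on chromosome 16. The 2 members of library 1 nearest to the limit had gaps of 10392 bp on chromosome X and 10582 bp on chromosome 3. The 2 peaks just short of it had 9798 bp on chromosome 12 and 9177 bp on chromosome 19. In library 2 the members nearest to it had 10691 and 11165 bp, and the peaks just short of it 9186 and 9040 bp.

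**Figure D1:**
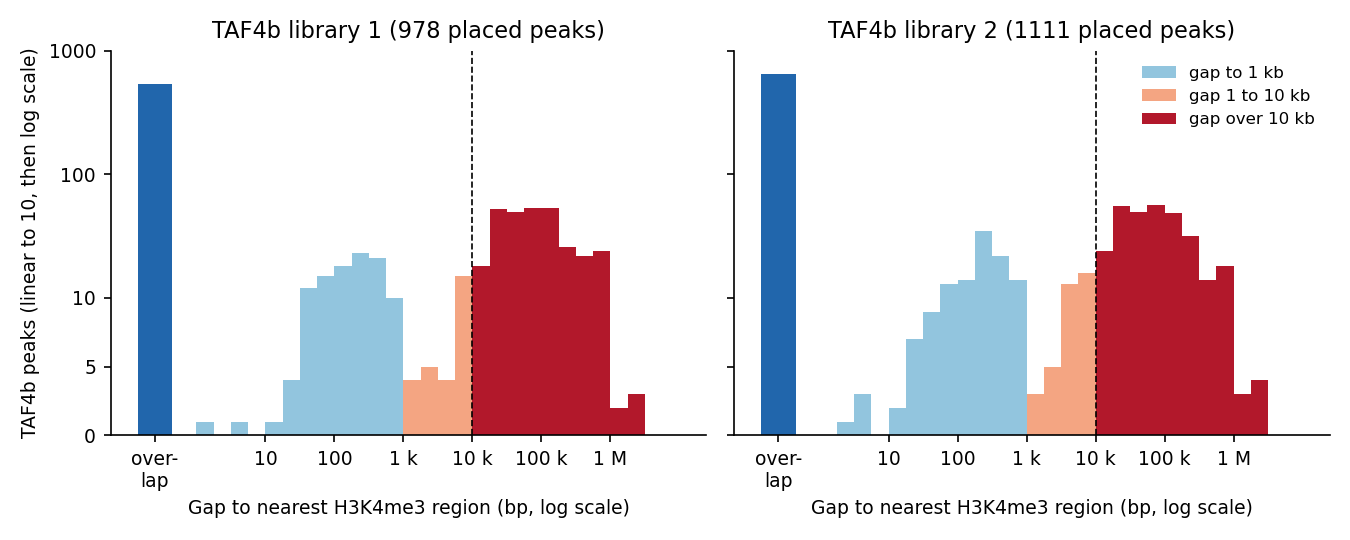
Number of TAF4b peaks (vertical axis, linear to 10 and then on a log scale) by gap to the nearest H3K4me3 region in bp (log scale) in each TAF4b library; the bar at the left counts overlapping peaks and the dashed line marks 10 kb. On this log scale the 303 and 305 far peaks form a hump around 100 kb, and 28 and 37 peaks lie between 1 and 10 kb. The bins widen with the gap, so the hump does not mark a separate class.

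Every chromosome with listed TAF4b peaks, X and the 19 autosomes, held far peaks. In library 1 the count ran from 6 on chromosome 19 to 26 on chromosome 10, and in library 2 from 6 on chromosome 18 to 24 on chromosome 5. As a share of the TAF4b peaks of a chromosome, the lowest was chromosome 17, with 7 of 46 (15.2%, 6.34 to 28.9%), in library 1 and chromosome 7, with 14 of 81 (17.3%, 9.78 to 27.3%), in library 2. The highest were chromosome 13 with 16 of 37 (43.2%, 27.1 to 60.5%) and chromosome 16 with 13 of 31 (41.9%, 24.5 to 60.9%). These intervals overlap. The X chromosome held 8 of 303 far peaks (2.64%) and 14 of 541 overlapping peaks (2.59%) in library 1, and 10 of 305 (3.28%) and 19 of 649 (2.93%) in library 2. The odds ratios of 1.02 (95% interval 0.367 to 2.64) and 1.12 (0.461 to 2.58) did not pass the threshold (two-sided Fisher's exact test, adjusted p of 1 and 0.945 over the 18 tests of this family).

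Most far peaks were still promoter peaks, though less often than peaks within H3K4me3. In library 1, a TSS was within 1 kb of 252 of the 303 far peaks (83.2%, 78.5 to 87.2%), against 529 of 541 overlapping peaks (97.8%, 96.2 to 98.8%) and 93.0% of all its peaks. In library 2 the counts were 282 of 305 (92.5%, 88.9 to 95.2%) and 639 of 649 (98.5%, 97.2 to 99.3%), against 96.7% of all peaks. The odds ratio was 0.112 (0.0536 to 0.218) in library 1 and 0.192 (0.0806 to 0.427) in library 2, with adjusted p of 5.79e-13 and 3.27e-05 in the same exact test. H3K4me3 itself lies around start sites, so choosing peaks that overlap it favours peaks near a TSS. The direction of this difference was thus in part set by the choice by gap. Among peaks scoring at or above the list's median, library 2 gave 95.1% against 98.4% and no longer passed (exact test, adjusted p = 0.0835). Peaks at intermediate gaps had intermediate or like shares: within 1 kb of a TSS were 98.1% of those with a gap of up to 1 kb and 89.3% of those with 1 to 10 kb in library 1, and 99.2% and 91.9% in library 2.

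The authors' annotation gave the same picture but is not independent of the distance to the TSS or of the choice by gap. All far peaks of the promoter-TSS class lay within 1 kb of a TSS, and all those between genes lay beyond it. The promoter-TSS class held 246 far peaks of library 1 (81.2%), against 94.6% of the overlapping peaks (odds ratio 0.245, 95% interval 0.147 to 0.401, Fisher's exact test, adjusted p = 1.19e-08). Library 2 gave 277 far peaks (90.8%) against 97.2% (odds ratio 0.283, 0.145 to 0.539, exact test, adjusted p = 0.000154). The class between genes held 36 far peaks of library 1 (11.9%, 8.46 to 16.1%), against 6 overlapping ones (1.11%, 0.408 to 2.40%), an odds ratio of 12.0 (4.92 to 35.2, exact test, adjusted p = 1.08e-10). In library 2 it held 15 (4.92%, 2.78 to 7.98%) against 5 (0.770%, 0.251 to 1.79%), an odds ratio of 6.65 (2.27 to 23.6, exact test, adjusted p = 0.000186). Among peaks at or above the median score, neither class passed in library 2 (odds ratios 0.376 and 2.95, adjusted p of 0.0786 and 0.219 in the exact test). Introns held 15 and 11 far peaks and exons 6 and 2 in libraries 1 and 2. No far peak was annotated to a transcription end site. Among peaks with a gap of 1 to 10 kb, promoter-TSS held 89.3% in library 1 and 86.5% in library 2. The class between genes held 3.57% and 5.41% of them (1 and 2 peaks). In library 2 the annotation of the far peaks was thus not particular to gaps over 10 kb.

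Most far promoter peaks were centred upstream of the TSS. Of those within 1 kb, 207 of 252 (82.1%) were centred upstream in library 1 and 236 of 282 (83.7%) in library 2, against 78.3% and 83.6% of the overlapping peaks. Neither difference passed (odds ratios 1.28, 0.860 to 1.92, and 1.01, 0.682 to 1.51, with adjusted p of 0.282 and 1 in Fisher's exact test). The median distance of the far promoter peaks was -56.5 bp in library 1, with quartiles of -115 and -17 bp, and -80 bp in library 2, with quartiles of -132 and -24.5 bp. The overlapping peaks had medians of -57 and -61 bp.

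Within 100 bp of a TSS lay 54.8% of the far peaks of library 1 (49.0 to 60.5%) and 64.1% of the overlapping peaks (59.9 to 68.2%), an odds ratio of 0.678 (0.504 to 0.912, exact test, adjusted p = 0.0134). In library 2 the shares were 52.5% (46.7 to 58.2%) and 67.8% (64.0 to 71.4%), with an odds ratio of 0.525 (0.393 to 0.700, exact test, adjusted p = 2.63e-05). Among peaks within 1 kb alone, a comparison added after the data were seen, library 1 gave 65.9% against 65.6% (odds ratio 1.01), with no difference left to call (exact test, adjusted p of 1). Library 2 kept a difference there, 56.7% against 68.9% (odds ratio 0.593, 0.440 to 0.801, exact test, adjusted p = 0.000847). Between 200 and 100 bp upstream lay 25.6% of its far peaks and 20.03% of its overlapping peaks, and in the last 50 bp before the TSS 17.4% and 26.5%. Library 1 did not share this pattern, with 17.8% against 21.8% and 23.1% against 24.2% in the same ranges. These ranges were not tested.

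**Figure D2:**
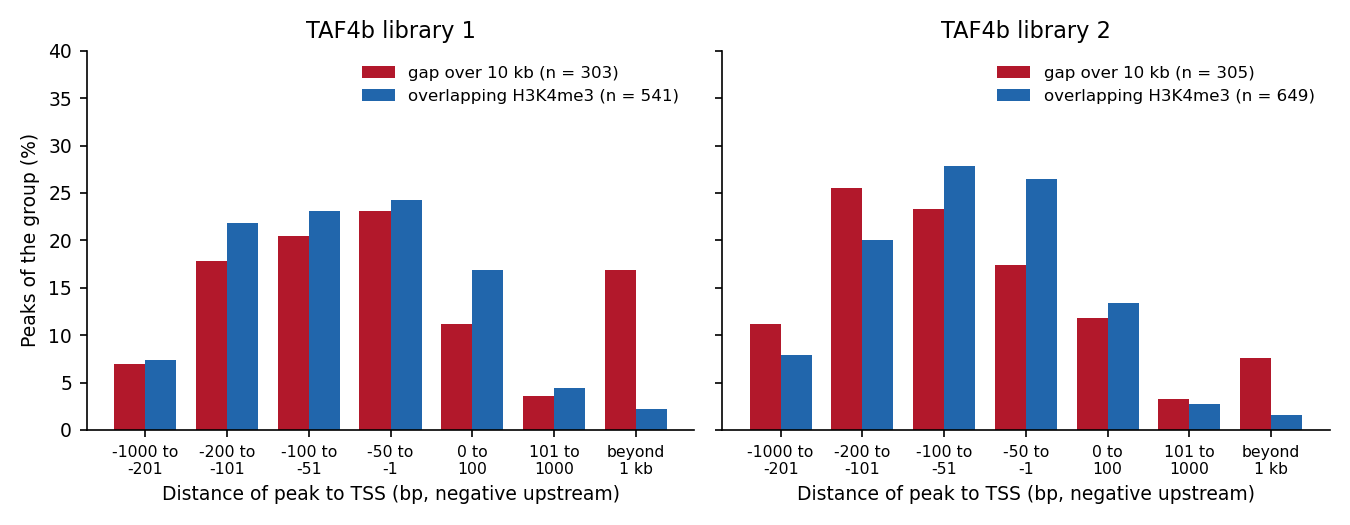
Share of the far and of the overlapping TAF4b peaks (vertical axis, %) in ranges of distance to the nearest TSS (horizontal axis, bp, negative upstream; the ranges differ in width), for each TAF4b library. The bars beyond 1 kb are 16.8% against 2.22% in library 1 and 7.54% against 1.54% in library 2.

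The longer the gap, the fewer far peaks lay at promoters. With a gap of 10 to 50 kb, 92.7% of 109 peaks of library 1 (86.0 to 96.8%) and 113 of 117 of library 2 (96.6%, 91.5 to 99.1%) were within 1 kb of a TSS. From 50 to 200 kb the counts were 110 of 127 (86.6%) and 118 of 127 (92.9%). Over 200 kb they were 41 of 67 (61.2%, 48.5 to 72.9%) and 51 of 61 (83.6%, 71.9 to 91.8%). The order was the same in both libraries and was not tested. H3K4me3 itself lies around start sites, so the gap and the distance to a TSS are linked. No share for other positions at such gaps is given here. The nearest transcript of a far peak was seldom the nearest transcript of an H3K4me3 region anywhere: this held for 9 of 303 (2.97%) and 5 of 305 (1.64%) far peaks, against 51.0% and 53.0% of the overlapping ones, which follows in large part from the choice by gap.

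Few far peaks had a neighbour. Another peak of the same library lay within 10 kb of 19 of 303 far peaks (6.27%) and 34 of 541 overlapping peaks (6.28%) in library 1, and of 12 of 305 (3.93%) and 30 of 649 (4.62%) in library 2. Joining far peaks of both libraries that lay within 10 kb of each other gave 471 loci. Of these, 121 held peaks of both libraries, 172 of library 1 alone and 178 of library 2 alone. Other peaks were not joined in this way, so the counts do not show a trait of far peaks. By overlap rather than by joining, 43.9% of all placed peaks of library 1 and 38.6% of those of library 2 were found in the other library.

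Far peaks scored lower in library 1. The score is the authors' own value per peak, is not comparable between lists, and is set side by side only within one. In library 1 the median was 7.7 for far peaks (quartiles 6.54 and 9.62, range 5 to 28.9) and 8.08 for overlapping peaks (6.54 and 10, range 4.62 to 26.6). In library 2 it was 18.3 (15.2 and 23.3, range 11.2 to 62.9) against 19.3 (16.2 and 25.4, range 12.2 to 55.8). The ranges overlap almost fully. Scores above the median of the list were found in 42.6% of the far and 52.3% of the overlapping peaks of library 1 (odds ratio 0.676, 0.504 to 0.906, Fisher's exact test, adjusted p = 0.0134). In library 2 the shares were 44.6% and 51.3%, which did not pass (odds ratio 0.764, 0.575 to 1.01, exact test, adjusted p = 0.0911). Library 1 no longer passed among peaks within 1 kb of a TSS (odds ratio 0.753, exact test, adjusted p = 0.109) or among peaks found in both TAF4b libraries (0.601, adjusted p = 0.0782). In library 2, far peaks with a gap over 50 kb did pass (0.616, exact test, adjusted p = 0.00858).

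The strongest peak of TAF4b library 1 was itself far from H3K4me3. It lay on chromosome 8 at 71151435 to 71151525, -119 bp from a TSS and 25270 bp from the nearest region, and scored 28.9 in library 1 and 24.3 in library 2. The strongest peak of library 2 scored 119.7 and was not far, with a gap of up to 1 kb. The strongest far peak of library 2, on chromosome 11 at 108902683 to 108902817, lay between genes, 4273 bp downstream of a TSS. That far peak scored 62.9 and had no library 1 peak within 413802 bp.

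The Focus Ratio, a fraction that the file headers give for each TAF4b peak without defining it, was higher in far peaks of library 1. HOMER, the tool in whose column names the lists are written, uses this name for the part of the reads that lie where a single sharp peak would put them. The median was 0.692 (quartiles 0.643 and 0.745) in the far peaks and 0.667 (0.621 and 0.711) in the overlapping ones. Values above the list's median made up 58.1% and 43.4% (odds ratio 1.80, 1.34 to 2.42, Fisher's exact test, adjusted p = 0.000154). In library 2 the medians were 0.676 and 0.667 and the shares 50.2% and 47.0%, which did not pass (odds ratio 1.14, 0.857 to 1.505, exact test, adjusted p = 0.441). Whether the libraries differ in this was not tested. Peaks with a gap of 1 to 10 kb had medians of 0.7005 and 0.682 in libraries 1 and 2, above those of the far peaks. Those with a gap of up to 1 kb had 0.677 and 0.68. A higher Focus Ratio than in overlapping peaks was thus not particular to far peaks. The far peaks beyond 1 kb of a TSS had medians of 0.733 in library 1 and 0.688 in library 2, against 0.680 and 0.667 for the far promoter peaks. Among peaks within 1 kb alone, library 1 still passed (odds ratio 1.49, 1.09 to 2.03, exact test, adjusted p = 0.0185). Among peaks at or above the median score the difference did not pass (library 1, odds ratio 1.46, 0.976 to 2.19, exact test, adjusted p = 0.111). Stratified by 4 equal score groups, a setting added after the data were seen, library 1 gave an odds ratio of 1.81 (1.36 to 2.40) and library 2 one of 1.15 (0.875 to 1.51).

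**Figure D3:**
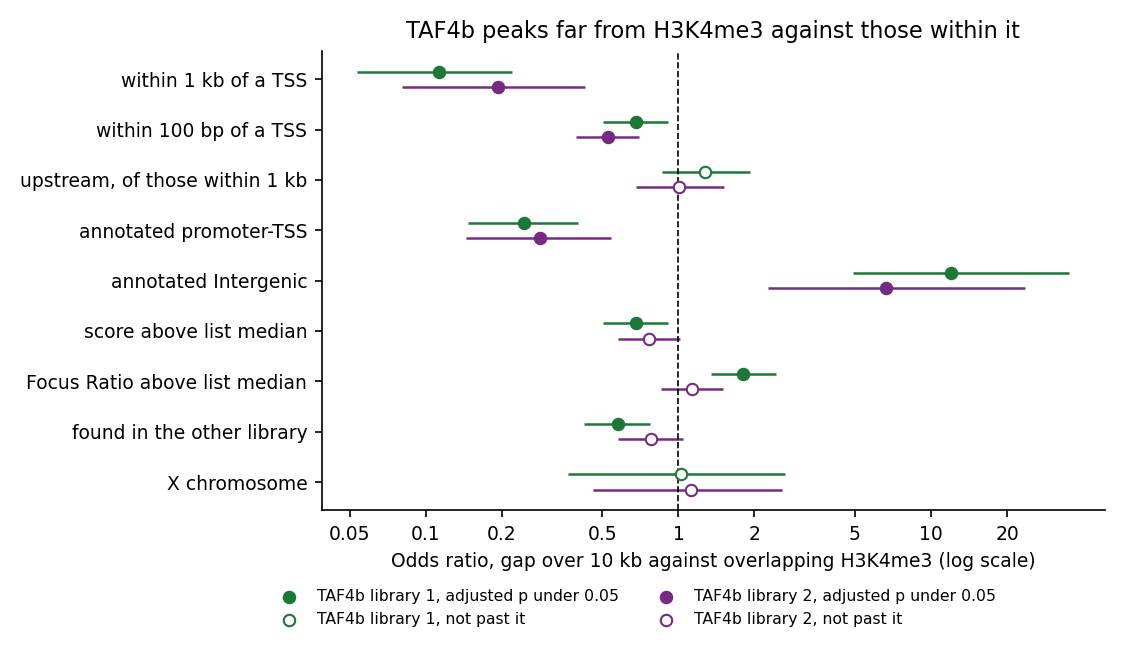
Odds ratio of far against overlapping TAF4b peaks (horizontal axis, log scale) for each of the 9 measures, with exact 95% intervals as bars; filled points have an adjusted p under 0.05 in Fisher's exact test. The largest departures from 1 are the shares within 1 kb of a TSS (0.112 and 0.192) and between genes (12.0 and 6.65).

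Far peaks of library 1 were recovered less often in library 2 than peaks within H3K4me3 were. In library 1, 105 of 303 overlapped a library 2 peak (34.7%, 29.3 to 40.3%), against 260 of 541 peaks within H3K4me3 (48.1%, 43.8 to 52.4%) and 43.9% of all its peaks. The odds ratio was 0.574 (0.424 to 0.774, Fisher's exact test, adjusted p = 0.000331). In library 2, 105 of 305 overlapped a library 1 peak (34.4%, 29.1 to 40.1%), against 262 of 649 (40.4%, 36.6 to 44.3%) and 38.6% of all peaks, and this difference did not pass (odds ratio 0.776, 0.577 to 1.04, exact test, adjusted p = 0.120). The same overlaps are counted from both sides, so the libraries do not give 2 independent values here. Intermediate peaks in library 1 were recovered at 48.1% (gap up to 1 kb) and 46.4% (1 to 10 kb), close to the overlapping peaks, and in library 2 at 40.8% and 35.1%.

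Recovery was lowest in the far peaks away from promoters. Far peaks within 1 kb of a TSS were recovered in 102 of 252 cases (40.5%, 34.4 to 46.8%) in library 1 and 102 of 282 (36.2%, 30.6 to 42.1%) in library 2. Overlapping peaks within 1 kb reached 48.4% and 40.4%. Over promoter peaks alone the odds ratio was 0.725 (0.529 to 0.994, exact test, adjusted p = 0.0630) in library 1 and 0.837 (0.619 to 1.13, adjusted p = 0.311 in the same exact test) in library 2. Far peaks beyond 1 kb were recovered in 3 of 51 cases (5.88%, 1.23 to 16.2%) and 3 of 23 (13.0%, 2.78 to 33.6%). The few overlapping peaks beyond 1 kb were recovered in 4 of 12 and 4 of 10 cases.

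Recovery was higher at higher scores in both groups, which was not tested. From the lowest to the highest of 4 equal score groups of library 1, the share of far peaks found in library 2 was 13.9%, 28.3%, 33.3% and 69.7%, against 22.1%, 28.0%, 60.1% and 77.1% of the overlapping peaks. In library 2 it was 17.2%, 27.3%, 41.3% and 57.6%, against 13.6%, 27.0%, 47.8% and 69.1%. Only in the third score group of library 1 did the exact intervals of the 2 groups not overlap (22.2 to 46.0% and 51.6 to 68.2%). Equal scores at the borders were split by their order in the list, so neighbouring score groups share a score. Another split of these ties was not tried. Stratified by these score groups, the odds ratio of library 1 was 0.601 (0.436 to 0.828) and that of library 2 was 0.850 (0.626 to 1.15).

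**Figure D4:**
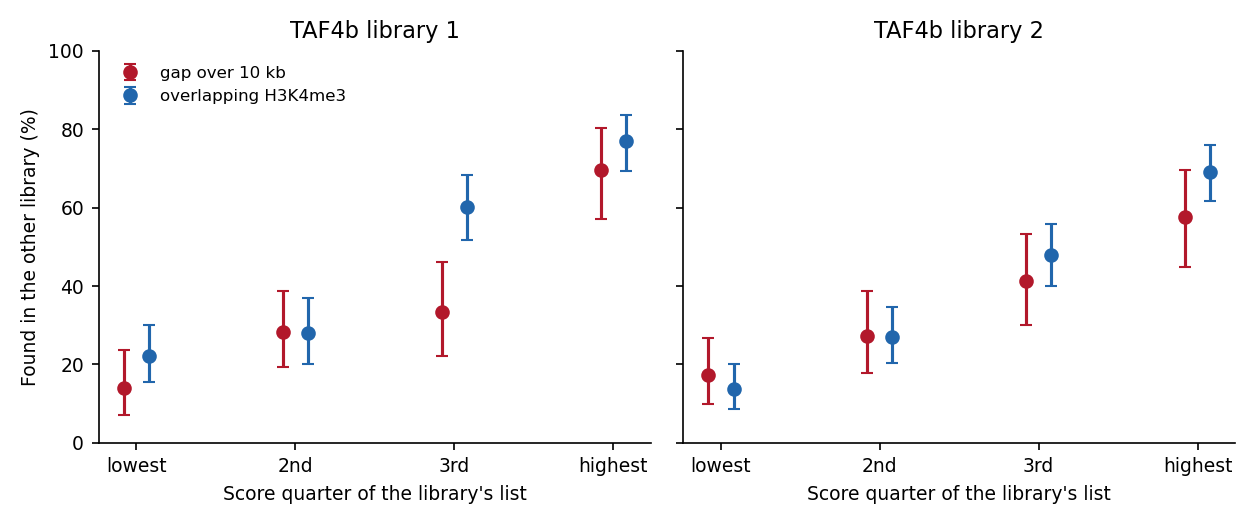
Share of TAF4b peaks found in the other TAF4b library (vertical axis, %) by score group of the list (horizontal axis), for far and overlapping peaks, with exact 95% intervals as bars. Both are higher at higher scores, the far peaks from 13.9 to 69.7% in library 1 and from 17.2 to 57.6% in library 2.

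The 105 library 1 far peaks with a library 2 counterpart formed 105 pairs, each far in both lists. The 2 peaks of a pair overlap and were set against the same H3K4me3 regions, so being far in both follows from the choice by gap. Of these pairs, 102 (97.1%) lay within 1 kb of a TSS, 3 lay between genes, and 96 had the same nearest transcript in both lists. Their centres were a median of 28 bp apart. Upstream of the TSS were 92 of the 102 in library 1 (90.2%, 82.7 to 95.2%) and 90 in library 2 (88.2%, 80.4 to 93.8%), at medians of -81 and -85.5 bp. Far promoter peaks without a counterpart were upstream in 115 of 150 cases (76.7%, 69.1 to 83.2%) in library 1 and 146 of 180 (81.1%, 74.6 to 86.6%) in library 2. Overlapping promoter peaks showed the same order, with 84.4% against 72.5% in library 1 and 85.7% against 82.2% in library 2. None of these splits by recovery was tested. The 105 pairs had median scores of 9.24 and 21.3 in libraries 1 and 2, and the far peaks without a counterpart had 6.93 and 17.2.

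The strongest pair by the mean of its score percentiles lay on chromosome 3 at 123302067, at -59 bp from its TSS in library 1 and -42 bp in library 2, with scores of 18.5 and 51.7. Its gap to H3K4me3 was 121915 bp. The next lay on chromosome 18 at 42644400, at -107 and -106 bp, with scores of 16.6 and 39.6 and a gap of 235708 bp. On chromosome 1 at 154975433 a pair at -96 and -86 bp scored 13.9 and 37.5, with the nearest region 47019 bp away. On chromosome 16 at 21828103 a pair at -86 and -105 bp scored 13.5 and 37.5, 97065 bp from a region.

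The other 6 of the 10 strongest pairs were promoter peaks as well. They lay on chromosomes 5, 11 and 19, scored 11.2 to 17.7 in library 1 and 29.4 to 37.5 in library 2, and had gaps of 17925 to 157370 bp. On chromosome 5 at 135807338 both libraries placed the peak downstream, at 49 and 48 bp. The 5 pairs with the widest gaps ranked from 23 to 102 of the 105. The widest, 2609839 bp on chromosome 16 at 78173681, was a promoter pair at -28 and -39 bp with low scores of 5.77 and 14.2. Promoter pairs on chromosome 12 at 118265734 and chromosome 1 at 51517588 had gaps of 935866 and 754645 bp. The other 2 of the 5 lay on the X chromosome, outside promoters.

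**Figure D5:**
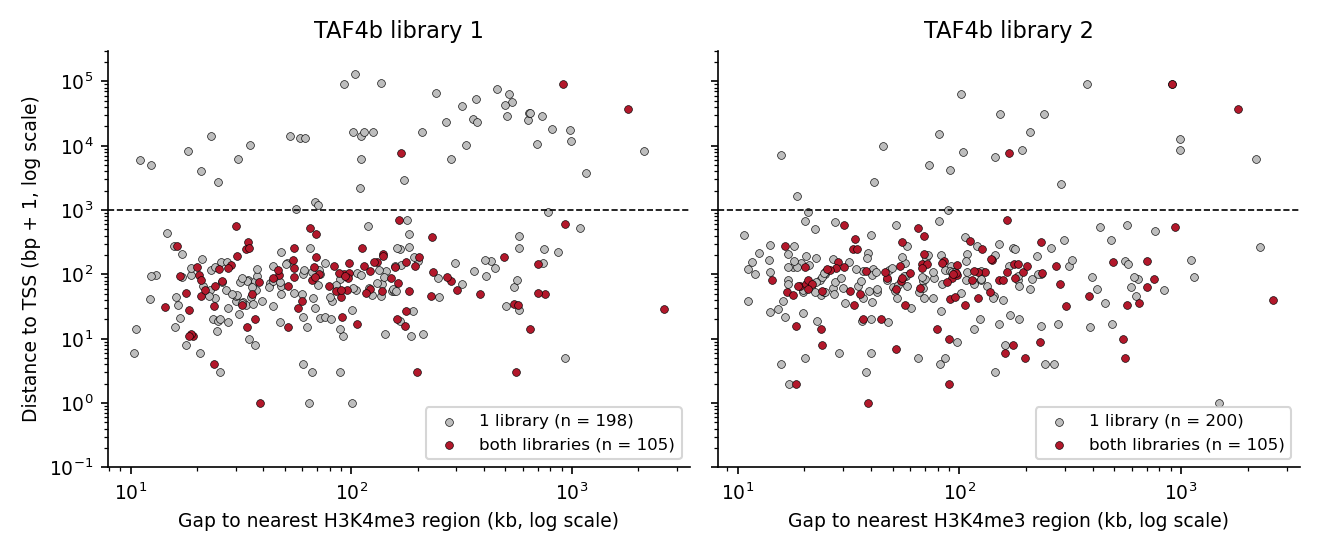
Distance of each far TAF4b peak to the nearest TSS (vertical axis, bp plus 1, log scale) against its gap to H3K4me3 (horizontal axis, kb, log scale) in each TAF4b library; red points were found in both libraries and the dashed line marks 1 kb. Below the line 102 peaks of each library are red, and above it 3.

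Beyond 1 kb of a TSS were 51 far peaks of library 1 (16.8%) and 23 of library 2 (7.54%). They lay at medians of 16179 and 8736 bp from the nearest TSS, 35 and 10 of them over 10 kb away, the farthest at 130266 and 91302 bp. Between genes were 36 and 15, in introns 12 and 8, and in exons 3 and 0. Their median gap to H3K4me3 was 208920 and 167971 bp, against 68050 and 68564 bp for the far promoter peaks. Median scores were 6.93 and 15.2, against 7.7 and 18.3. The X chromosome held 4 of the 51 (7.84%) and 7 of the 23 (30.4%), against 4 of 252 (1.59%) and 3 of 282 (1.06%) far promoter peaks. This contrast was noticed in the data and not tested. Most of these X-linked non-promoter peaks of each library lay in 2 groups, of 3 and 4 peaks, between 169014987 and 169097768. The shares on X thus count 1 stretch several times.

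Joined within 10 kb, these 74 peaks formed 63 loci, of which 6 held peaks of both libraries. Peaks outside this group were not joined in this way, so these counts have no share to be set against. At 3 of the 6 the peaks themselves overlapped. The strongest lay on chromosome 15 at 101144268 to 101144358, -7837 bp from a TSS and 167986 bp from H3K4me3, with scores of 10.4 and 41.6. On chromosome X at 65919947 to 65920037, -37261 bp from a TSS, scores were 11.9 and 25.4 and the gap was 1801703 bp. The third, on chromosome X at 169015770 to 169015860, scored 10.4 and 15.2, at -90541 bp from a TSS and 911625 bp from a region. A second library 2 peak lay 649 bp from it, with a score of 14.2.

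The other 3 loci had peaks of both libraries that did not overlap and were joined only by the 10 kb limit. On chromosome X from 169088737 to 169097768, library 1 had peaks scoring 14.6 and 7.31 and library 2 had peaks scoring 14.2 and 12.2. All 7 peaks of this locus and the one at 169015770 had the same nearest transcript, ENSMUST00000178693. In an intron on chromosome 17, a library 1 peak at 13772902 to 13772992 scored 16.9, had the highest Focus Ratio of any far peak, 0.958, and lay 341 bp from a library 2 peak scoring 16.2. On chromosome 16 a library 1 peak at 3162564 lay 5865 bp from a library 2 peak at 3156565.

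Some of the other non-promoter peaks were seen in library 1 alone and lay in groups. On chromosome 9, 3 peaks between 123722754 and 123736883 scored 9.24, 14.6 and 10 and had no library 2 peak within 175890 bp. Others lay near the starts of chromosomes, where the centromere of the acrocentric mouse chromosomes lies. Below 3.2 Mb lay 7 far peaks of library 1 and 1 of library 2, on chromosomes 4, 9, 11, 16 and 18, and no overlapping peak of either library. Of these 8, 7 were beyond 1 kb of a TSS. The gaps of the 8 ran from 20946 to 812827 bp. An overlapping peak can lie only where a region was called, so the contrast follows in part from the choice by gap. The far peaks named here and the limit of 3.2 Mb were chosen after the values were seen.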

How the data were processed

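CUT&RUN peak lists of 2 TAF4b and 2 H3K4me3 libraries were used, as deposited by the authors, 1 list per library and not pooled. The submitters' processing notes name Bowtie2 2.3.0, SAMtools 1.9, HOMER 4.10 and build GRCm39, without their roles. The sources used here do not say whether IgG served as a control for the peaks. Per the file headers, the lists hold a peak score (scaling not stated), for TAF4b a Focus Ratio (a fraction), a signed distance to the TSS and an annotation.

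Gaps were measured between feature edges; contigs were left out. Far peaks (gap over 10000 bp) were compared with overlapping peaks (at least 1 bp) per library by two-sided Fisher's exact tests on 9 shares, with conditional odds ratios. Shares above a list's median stand for score and Focus Ratio. P-values were Benjamini-Hochberg adjusted over the 18 tests, with a threshold of 0.05; an alternative to 1 measure kept the other p-values. Shares have exact (Clopper-Pearson) 95% intervals, for counting error only. Mantel-Haenszel odds ratios combined strata. Score groups of equal size split tied scores by their order in the list. The test was tried on simulated data. Python 3.11.15, pandas 2.3.3, NumPy 2.4.6, SciPy 1.17.1, statsmodels 0.14.6 and matplotlib 3.10.9 were used.

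The members, measures and lists were chosen with earlier results of these data known. Named regions are the 10 far pairs with the highest mean score percentile, the 5 with the widest gaps, those beyond 1 kb of a TSS, the peaks beside the 10 kb limit and the strongest far peaks found in 1 library; those outside this rule (the strongest peak of library 1, peaks in groups and at chromosome starts) were chosen after their values were seen. No region sequence, gene name or gene list is given, since the reference tables used here are of GRCm38.p6 and hold no Ensembl identifiers.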

Additional observations from a re-analysis of the deposited data

Results flagged for a closer look

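TAF4b library 1 held 5 peaks on unplaced contigs, which the comparisons leave out, and library 2 held 0. They are given here because they are signal outside the placed chromosomes, with no control value beside them. On 1 contig, 3 peaks scored 10.4, 7.7 and 7.7 and lay 521, 9283 and 4476 bp from an H3K4me3 region. On another a peak scoring 17.7 lay 27377 bp from one, and on the last, which has no H3K4me3 region, a peak scored 6.16.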

How the results depend on the processing

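Of 145 values under other settings, 117 stayed the same, 16 kept their direction but lost the call, 4 gained one and 8 turned direction. None of the 8 was called under the setting that turned it, and 1 of them had been called before (within 100 bp in library 1, given below). For an odds ratio, the same means the same direction and side of the threshold. The 145 also hold the counts of far peaks with contigs included (304 and 305), which have neither. Each replicate-block odds ratio is counted once per library. All values below are odds ratios of far against overlapping peaks. Leaving out 1 H3K4me3 library in turn gave 0.170 to 0.418 for the share within 1 kb of a TSS in library 2. The share within 100 bp gave 0.480 to 0.679 in library 1 and 0.513 to 0.601 in library 2. Library 2 gave 0.254 to 0.285 for promoter-TSS and 1.44 to 8.66 between genes. Library 1 gave 0.588 to 0.672 for the score, 1.16 to 1.79 for the Focus Ratio and 0.570 to 0.604 for recovery. The share on the X chromosome gave 0.994 to 1.32 in library 1 and 0.977 to 1.21 in library 2. The 8 calls lost here were lost without H3K4me3 library 1, which leaves 52 and 67 overlapping peaks and makes 912 and 1028 peaks far, many of them near regions of that library; 3 further values of library 1 were 0 or infinite, since all 52 overlapping peaks were then promoter peaks.

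With peaks at or above the median score, calls were lost in library 2 within 1 kb (0.313), for promoter-TSS (0.376) and between genes (2.95), and in library 1 within 100 bp (0.875) and for the Focus Ratio (1.46). The Focus Ratio in library 2 (0.972) and the X chromosome in library 1 (0.573) turned direction. Peaks within 1 kb alone gave, in library 1, 1.01 for the share within 100 bp, 0.753 for the score and 0.725 for recovery. Peaks found in both libraries gave 0.601 for the score in library 1. A gap over 50 kb gave 0.616 for the score in library 2. A gap over 5 kb gave 0.987 for upstream centring in library 2 and 0.971 for the X chromosome in library 1, and all peaks within 10 kb as reference gave 0.989 for upstream centring in library 2. The causes were not tested.

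With the replicate number as a replicate block, both TAF4b libraries gave 1 odds ratio each for the score (0.720), the Focus Ratio (1.42) and recovery (0.669), which passed where library 2 alone did not; no other call changed. The recovery counts of both libraries hold the same pairs, and nothing in the labels says that a number marks a shared batch. Read depth is unknown, and the H3K4me3 lists limit which peaks can count as far.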
